A study of Homo sapiens with 6 samples.

Results

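The transcripts of 10 genes of the circadian clock were compared: PER1, PER2, PER3, CRY1, CRY2, ARNTL, CLOCK, NR1D1, NR1D2 and DBP. They were found by symbol in a table of 11314 protein-coding genes, and all 10 were present and among the 11061 genes tested. The 6 messenger RNA libraries came from SNU-668, an established gastric cancer cell line, in a subline described as resistant to erastin, a compound that sets off ferroptosis by blocking cystine uptake. By title, 3 libraries are SPIN1 and 3 are NC; transfection with shRNA-SPIN1 (a hairpin against the histone reader SPIN1) or with the control shRNA-NC is given as the treatment. The genotype entries say the opposite, with WT entered for titled SPIN1 and SPIN1 knockdown for titled NC, and the design text names ALKBH3 instead. Every title also carries the prefix RLS3, which the labels leave unexplained. Groups follow the titles throughout, and lower or higher means lower or higher in the libraries titled SPIN1 than in those titled NC.

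The clock is a feedback loop of transcription. The proteins of CLOCK and ARNTL (also called BMAL1) pair up, bind E-box elements and switch on the PER and CRY genes, whose products return to the nucleus and inhibit that pair. The same pair drives NR1D1 and NR1D2, nuclear receptors (REV-ERB alpha and beta) that repress ARNTL through ROR elements, and DBP, an activator at D-box elements. In most tissues the greater part of these transcripts swing over the day, with phases of their own. The labels give neither a time of harvest nor a step that synchronised the cells, so a shift of phase, a change of amplitude and a change of mean level cannot be told apart here, and in bulk RNA neither can fewer expressing cells and less RNA per cell.

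SPIN1 itself was at 0.324, 0.629 and 2.49 FPKM (fragments of a gene per kilobase of its length, relative to all fragments mapped) in titled SPIN1 replicates 1 to 3, against 0.322, 6.18 and 7.97 FPKM in titled NC replicates 1 to 3. The groups overlapped through titled NC replicate 1, so the transcript with all 6 libraries did not check the titles. With all 6 libraries its log2(FPKM + 1) difference was -1.17 and did not pass (limma adjusted p = 0.307). Of the 6 fits without 1 library, 1 passed, that without titled NC replicate 1 (-2.03, SE 0.43, limma adjusted p = 0.0301). The library left out there is the one that went against the titles, so that fit cannot check them either. Median FPKM over the table was 5.16 to 5.49 in the libraries titled SPIN1 and 4.91 to 5.12 in those titled NC, and since the file holds no counts, sequencing depth is unknown. Of the markers checked for the cell type, KRT8, KRT18 and EPCAM were listed among 6 epithelial ones, summing to 140 to 241 FPKM in titled SPIN1 and 95.4 to 114 FPKM in titled NC. EPCAM gave only 0.740 to 1.44 FPKM of that sum in titled SPIN1 and 0.313 to 0.790 FPKM in titled NC. Of 5 fibroblast markers DCN and LUM were listed, at 11.6 to 16.1 FPKM against 4.51 to 6.54 FPKM in sum, and of 5 leukocyte markers CD14 and LYZ, at 8.17 to 14.9 FPKM against 24.3 to 26.0 FPKM. LYZ gave only 0.265 to 0.443 FPKM of the leukocyte sum in titled SPIN1 and 0.805 to 1.15 FPKM in titled NC. CDH5 was the one of 4 endothelial markers listed, at 0.348 to 1.22 FPKM against 1.40 to 1.73 FPKM. The other markers were not analysed here, and the part of these differences in the results below was not tested. The labels name no separate cultures within a group, so p-values measure only their spread, possibly a technical one.

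PER1, PER2 and NR1D1, all of them repressors within the clock that are driven by its activator pair, were lower in the libraries titled SPIN1. PER1 was at 4.05 ± 0.589 FPKM against 7.96 ± 1.17 FPKM, PER2 at 1.66 ± 0.116 against 3.46 ± 0.368 FPKM and NR1D1 at 11.1 ± 1.11 against 18.1 ± 2.57 FPKM (titled SPIN1 against titled NC, SD, n = 3 each). The activators ARNTL and CLOCK, the cryptochromes, PER3, NR1D2 and DBP did not pass the test. The test was limma on log2(FPKM + 1) over all genes, with a Benjamini-Hochberg adjusted p under 0.05. It called 3 of the 10 clock genes lower and 0 higher, while over all genes tested it called 10.3% lower and 17.3% higher. At an unadjusted p under 0.05, 4 clock genes were lower and 1 higher. The difference was below 0 for 8 of the 10, and below 0 for 45.1% of all genes tested. The median difference of the 10 was -0.32, beside a median of 0.05 over all genes tested. After quantile normalization the calls over all genes were 1596 higher and 1570 lower, against 1914 and 1139 on the deposited scale.

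**Figure D1:**
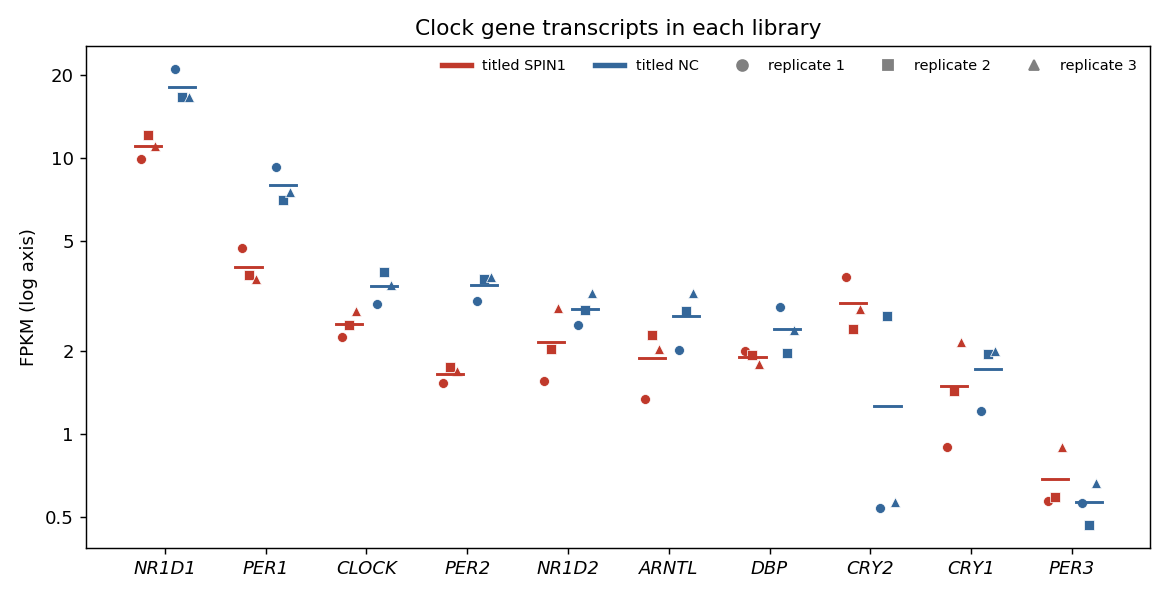
FPKM (log axis) of the 10 clock genes in each library, ordered by mean level, with titled SPIN1 in red to the left of titled NC in blue. Symbols mark the replicate and bars the mean of 3 libraries; the groups stand clear of each other for NR1D1, PER1, PER2 and CLOCK, and CRY2 spreads from 0.542 to 2.68 FPKM within titled NC.

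Among the PER genes, whose proteins carry the inhibitory complex into the nucleus, PER1 is known for its fast response to glucocorticoids and cAMP. PER1 (ENSG00000179094.15_3, hg19 chromosome 17, 8043790 to 8059824, minus strand) was at 4.72, 3.76 and 3.66 FPKM in titled SPIN1 replicates 1 to 3 and at 9.27, 7.05 and 7.55 FPKM in titled NC replicates 1 to 3. Every library titled SPIN1 lay below every library titled NC, and the mean was 1.97-fold lower. The difference on the log2(FPKM + 1) scale was -0.83 (SE 0.14, 95% confidence interval -1.16 to -0.49, limma adjusted p = 0.00702).

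PER2 (ENSG00000132326.11_3, hg19 chromosome 2, 239152679 to 239198743, minus strand), a partner of the cryptochromes and a target of casein kinase, was at 1.53, 1.75 and 1.69 FPKM in titled SPIN1. In titled NC it was at 3.04, 3.64 and 3.72 FPKM, again with no overlap. Its mean was 2.09-fold lower, and its log2(FPKM + 1) difference was -0.75 (SE 0.11, limma adjusted p = 0.00426). At such levels the added 1 shrinks the difference, which came to -1.06 with a pseudocount of 0.01. PER3 (ENSG00000049246.14_2, hg19 chromosome 1, 7844380 to 7905237, plus strand), which is dispensable for rhythm in mice, was the least abundant of the family. It stood at 0.573, 0.591 and 0.902 FPKM in titled SPIN1 and 0.565, 0.470 and 0.666 FPKM in titled NC. The PER3 groups overlapped, and the log2(FPKM + 1) difference of 0.10 did not pass (95% confidence interval -0.15 to 0.36, limma adjusted p = 0.505). Summed over the 3 PER genes, the level was 6.83, 6.10 and 6.25 FPKM in titled SPIN1 and 12.9, 11.2 and 11.9 FPKM in titled NC.

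NR1D1 (ENSG00000126368.5_2, hg19 chromosome 17, 38249040 to 38256978, minus strand), the heme-binding repressor REV-ERB alpha, was the most abundant clock gene in all 6 libraries. It was at 9.95, 12.2 and 11.1 FPKM in titled SPIN1 and at 21.0, 16.6 and 16.6 FPKM in titled NC, without overlap. The mean was 1.63-fold lower and the log2(FPKM + 1) difference was -0.66 (SE 0.13, 95% confidence interval -0.97 to -0.35, limma adjusted p = 0.0118). Its 3' end shares 1081 bases with that of THRA, a thyroid hormone receptor gene on the opposite strand, and whether the quantification used the strand is not stated in the sources read here. THRA was at 8.07, 6.51 and 8.44 FPKM in titled SPIN1 and 5.71, 5.05 and 6.01 FPKM in titled NC, so it was not lower where NR1D1 was. The THRA difference on the log2(FPKM + 1) scale was 0.39 and did not pass (limma adjusted p = 0.0600). It passed without titled SPIN1 replicate 2 (adjusted p = 0.0473).

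NR1D2 (ENSG00000174738.12_2, hg19 chromosome 3, 23986751 to 24022109, plus strand) encodes REV-ERB beta, which overlaps in function with REV-ERB alpha. It was at 1.56, 2.04 and 2.87 FPKM in titled SPIN1 and at 2.49, 2.83 and 3.24 FPKM in titled NC. Titled SPIN1 replicate 3 lay within the range of titled NC, and the log2(FPKM + 1) difference of -0.30 did not pass (95% confidence interval -0.72 to 0.11, limma adjusted p = 0.236). It passed with weights per library (-0.33, limma adjusted p = 0.0369). NR1D1 was 6.37, 5.98 and 3.86 times as abundant as NR1D2 in titled SPIN1, against 8.45, 5.87 and 5.13 times in titled NC. These ratios of FPKM overlapped between the groups.

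PER1, PER2, NR1D1 and NR1D2 are classic targets of the E-box, while ARNTL is the classic target of the ROR element, so their promoters are shown. Each window runs from 250 bases before to 50 after a transcription start in RefSeq on GRCh38.p14, 5′ to 3′ on the gene's strand, and capitals mark every match to the motifs searched. These were CACGTG (the E-box), CACGTT (a noncanonical E-box), TTACGTAA or TTATGTAA (D-box), AANT followed directly by AGGTCA (core of the ROR element) and TGACGTCA (cAMP response element), on both strands, with none overlapping another in the windows printed. The windows are chr17:8152355-8152654 for PER1, chr2:238288561-238288860 for PER2 and chr17:40100540-40100839 for NR1D1, all on the minus strand. Those of NR1D2 (chr3:23945871-23946170) and ARNTL (chr11:13277540-13277839) are on the plus strand, each being the second of 2 starts listed.
PER1: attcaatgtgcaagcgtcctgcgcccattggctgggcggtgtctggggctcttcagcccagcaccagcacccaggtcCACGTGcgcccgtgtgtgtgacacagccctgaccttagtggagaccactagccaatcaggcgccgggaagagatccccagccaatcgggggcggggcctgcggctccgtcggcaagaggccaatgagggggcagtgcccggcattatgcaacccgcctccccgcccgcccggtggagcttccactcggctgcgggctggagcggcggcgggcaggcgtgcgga
PER2: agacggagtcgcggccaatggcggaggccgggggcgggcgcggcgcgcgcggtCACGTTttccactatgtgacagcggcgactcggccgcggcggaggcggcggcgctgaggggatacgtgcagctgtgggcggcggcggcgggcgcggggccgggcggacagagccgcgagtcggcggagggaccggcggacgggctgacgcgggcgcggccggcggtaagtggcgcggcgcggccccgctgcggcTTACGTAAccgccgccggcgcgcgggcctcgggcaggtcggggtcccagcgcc
NR1D1: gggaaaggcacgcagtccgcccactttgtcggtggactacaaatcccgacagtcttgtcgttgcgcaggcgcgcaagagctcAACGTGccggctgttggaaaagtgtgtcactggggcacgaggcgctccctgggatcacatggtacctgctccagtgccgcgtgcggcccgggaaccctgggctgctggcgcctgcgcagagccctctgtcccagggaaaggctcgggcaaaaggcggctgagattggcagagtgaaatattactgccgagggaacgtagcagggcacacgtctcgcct
NR1D2: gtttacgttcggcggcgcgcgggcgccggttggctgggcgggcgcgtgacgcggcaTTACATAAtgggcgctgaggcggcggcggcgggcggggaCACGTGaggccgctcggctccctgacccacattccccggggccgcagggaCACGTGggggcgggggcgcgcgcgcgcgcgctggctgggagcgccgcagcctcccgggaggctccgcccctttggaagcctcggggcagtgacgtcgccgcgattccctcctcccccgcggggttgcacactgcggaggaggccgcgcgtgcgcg
ARNTL: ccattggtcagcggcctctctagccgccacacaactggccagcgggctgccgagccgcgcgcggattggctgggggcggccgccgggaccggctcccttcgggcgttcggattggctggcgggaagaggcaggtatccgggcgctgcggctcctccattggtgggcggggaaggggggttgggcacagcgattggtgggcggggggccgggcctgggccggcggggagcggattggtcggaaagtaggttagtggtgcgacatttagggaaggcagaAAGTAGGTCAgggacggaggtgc

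PER1 held 1 E-box beginning 173 bases before the start, and NR1D2 held 2, at 155 and 105 bases before it, with a D-box match at 194. PER2 had the noncanonical E-box 197 bases before the start and a D-box beginning 3 bases before it, and NR1D1 had the noncanonical form at 168 bases on the opposite strand. ARNTL carried the ROR element core from base 28 after the start. All 10 genes matched a window in RefSeq, 15 windows in all. The background was 35116 windows of 27305 RefSeq genes, whether tested here or not. It thus had fewer windows per gene than the 10, and more windows leave more room for a match. An E-box was found in 2 of the 10 genes and in 8.77% of 27305 genes, and the noncanonical form in 5 of 10 (PER2, NR1D1, CRY1, CRY2 and CLOCK) and in 6.44% of all. A D-box was found in 3 of 10 (PER2, PER3 and NR1D2) against 1.27% of all, and the ROR element core in ARNTL alone against 0.201% of all. The cAMP response element was in 0 of 10 and in 2.25% of all genes. The noncanonical E-box was found in PER2 and NR1D1, which were lower, and in CRY1, CRY2 and CLOCK, which did not pass. Whether the motifs relate to the changes was not tested. A match describes the letters in the window and is not a measured binding site.

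**Figure D2:**
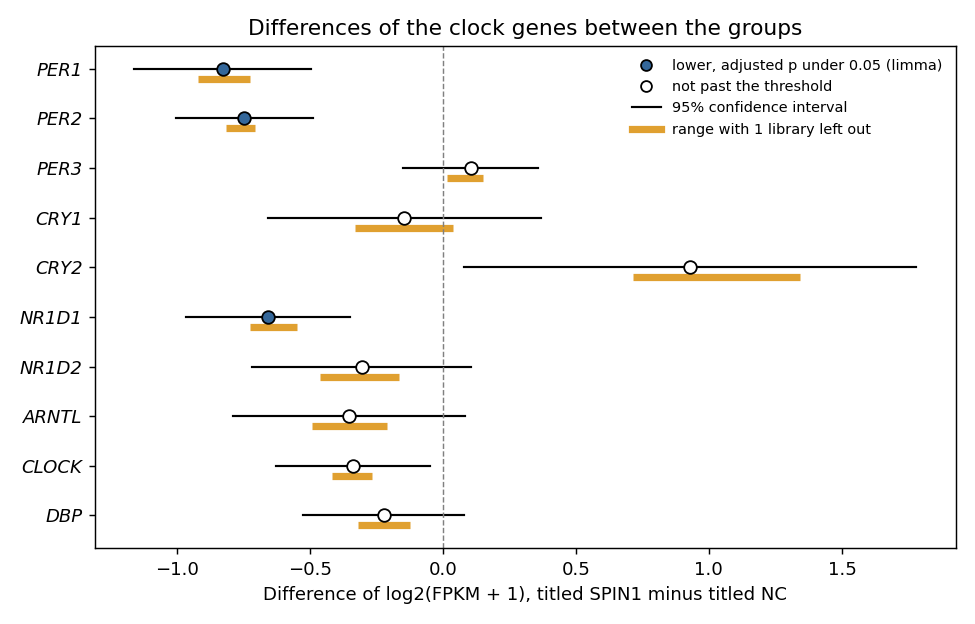
Difference of log2(FPKM + 1), titled SPIN1 minus titled NC, for each clock gene. Circles give the estimate (filled where limma's adjusted p was under 0.05), black lines the 95% confidence interval and orange bars the range when 1 library was left out; PER1 at -0.83, PER2 at -0.75 and NR1D1 at -0.66 are filled.

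The activators ARNTL and CLOCK had lower means without passing the test. ARNTL (ENSG00000133794.17_3, plus strand of hg19 chromosome 11, 13298199 to 13408813) was at 1.34, 2.30 and 2.03 FPKM in titled SPIN1 and at 2.02, 2.80 and 3.25 FPKM in titled NC. The groups overlapped and the log2(FPKM + 1) difference was -0.35 (95% confidence interval -0.79 to 0.08, limma adjusted p = 0.199). CLOCK (ENSG00000134852.14_3, hg19 chromosome 4, 56294070 to 56413305, minus strand), a histone acetyltransferase as well as a DNA-binding factor, was at 2.26, 2.48 and 2.80 FPKM in titled SPIN1 and at 2.97, 3.88 and 3.48 FPKM in titled NC. The CLOCK groups did not overlap, which made 4 of 10 clock genes lower by that count, beside 18.8% of all genes tested; no clock gene was higher without overlap, beside 27.2%. Its log2(FPKM + 1) difference of -0.34 missed the threshold (95% confidence interval -0.63 to -0.05, limma adjusted p = 0.0846). It passed after median scaling (-0.39, adjusted p = 0.0416), after quantile normalization (-0.41, adjusted p = 0.0293) and with weights per library (-0.42, adjusted p = 0.00719), and over all alternatives limma's adjusted p ran from 0.00719 to 0.250. CLOCK overlaps TMEM165 on the other strand over 25495 bases of its gene model, and TMEM165 was at 6.94 ± 1.83 FPKM in titled SPIN1 and 5.31 ± 1.39 FPKM in titled NC (SD, n = 3 each).

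The cryptochromes CRY1 and CRY2 encode the strongest inhibitors of the activator pair. CRY1 (ENSG00000008405.11_3, hg19 chromosome 12, 107385142 to 107487607, minus strand) was at 0.900, 1.43 and 2.16 FPKM in titled SPIN1 and at 1.22, 1.96 and 2.01 FPKM in titled NC. Both groups spread over the same range, and the log2(FPKM + 1) difference of -0.14 did not pass (95% confidence interval -0.66 to 0.37, limma adjusted p = 0.654). Without titled SPIN1 replicate 1 it was 0.04.

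CRY2 (ENSG00000121671.11_2, plus strand of hg19 chromosome 11, 45868669 to 45904799) was at 3.70, 2.41 and 2.84 FPKM in titled SPIN1, and at 0.542, 2.68 and 0.570 FPKM in titled NC. Titled NC replicate 2 lay within the range of titled SPIN1, and the other two libraries titled NC lay far below it. The log2(FPKM + 1) difference of 0.93 had a wide error and did not pass (SE 0.35, 95% confidence interval 0.08 to 1.78, limma adjusted p = 0.0996). Without titled NC replicate 2 it was 1.34 and passed (limma adjusted p = 0.00777), whereas with weights per library it was 0.37 and without both libraries numbered 1 it was 0.59, and neither passed (adjusted p = 0.425 and 0.393). Over all alternatives limma's adjusted p ran from 0.00777 to 0.425. CRY1 stood to CRY2 at 0.244, 0.594 and 0.761 in titled SPIN1 and at 2.25, 0.730 and 3.53 in titled NC, as ratios of FPKM. Because of titled NC replicate 2 these ratios overlapped.

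DBP (ENSG00000105516.10_2, hg19 chromosome 19, 49133287 to 49140695, minus strand) encodes an output activator whose daily swing in liver is among the widest of the clock. It was at 2.00, 1.93 and 1.79 FPKM in titled SPIN1 and at 2.89, 1.97 and 2.38 FPKM in titled NC. Titled NC replicate 2 fell within the range of titled SPIN1, and the log2(FPKM + 1) difference of -0.22 did not pass (95% confidence interval -0.52 to 0.08, limma adjusted p = 0.236). DBP shares 688 bases at its 3' end with SPHK2, a sphingosine kinase gene on the other strand, which was lower at 5.02 ± 0.910 FPKM in titled SPIN1 against 10.3 ± 1.56 FPKM in titled NC (SD, n = 3 each; limma adjusted p = 0.00757). NR1D2 shares 1332 bases at its 5' end with NKIRAS1, which was at 3.15 ± 0.451 FPKM against 3.98 ± 0.480 FPKM (limma adjusted p = 0.175). The same doubt about strand holds for these pairs.

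The calls of PER1, PER2 and NR1D1 held in each of 17 other fits at an adjusted p under 0.05, among them all 6 fits without 1 library and the fit without both libraries numbered 1. None of the 3 reached a log2(FPKM + 1) difference of 1 in size on the deposited scale, so none is called where that is required as well. Without titled NC replicate 1 the log2(FPKM + 1) difference was -0.72 for PER1, -0.82 for PER2 and -0.55 for NR1D1 (limma adjusted p = 0.0212, 0.00922 and 0.0281), and over all genes 1440 were higher and 875 lower. The highest limma adjusted p over the 17 fits was 0.0299 for PER1, 0.0233 for PER2 and 0.0363 for NR1D1. The log2 difference ran from -0.97 to -0.72 for PER1, from -1.06 to -0.70 for PER2 and from -0.73 to -0.48 for NR1D1.

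NR1D1 came first and PER1 second by FPKM in every library. PER2 changed its place: it ranked 7, 8 and 9 of the 10 in titled SPIN1 replicates 1 to 3 and 3, 4 and 3 in titled NC replicates 1 to 3. PER3 was last or next to last in all libraries. CLOCK, ARNTL, NR1D2 and DBP lay close to each other. CLOCK stood above ARNTL and DBP in every library, and below NR1D2 only in titled SPIN1 replicate 3. The order of ARNTL, NR1D2 and DBP varied between libraries. Over the whole table the mean level of NR1D1 stood at the 76.9 percentile, that of PER1 at 53.6 and that of PER3 at 4.89, and the other 7 stood between 19.3 and 33.9.

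Ratios of FPKM within a library are free of any scaling between libraries, and they set the clock genes against each other. PER1 was 3.09, 2.14 and 2.17 times as abundant as PER2 in titled SPIN1 and 3.05, 1.94 and 2.03 times in titled NC, so the ratios overlapped while both genes were lower. PER2 stood to ARNTL at 1.14, 0.764 and 0.831 in titled SPIN1 and at 1.51, 1.30 and 1.14 in titled NC. The 3 lower values were those of titled SPIN1, although its highest and the lowest of titled NC nearly touched. The ratio of NR1D1 to ARNTL was 7.40, 5.30 and 5.45 in titled SPIN1 and 10.4, 5.92 and 5.11 in titled NC, with overlap, and that of PER1 to ARNTL was 3.51, 1.64 and 1.80 against 4.59, 2.52 and 2.32, also with overlap. CLOCK to ARNTL gave 1.68, 1.08 and 1.38 against 1.47, 1.39 and 1.07. Of the 3 repressors set against ARNTL, PER2 was the one whose groups did not overlap, and no test was made of these ratios.

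**Figure D3:**
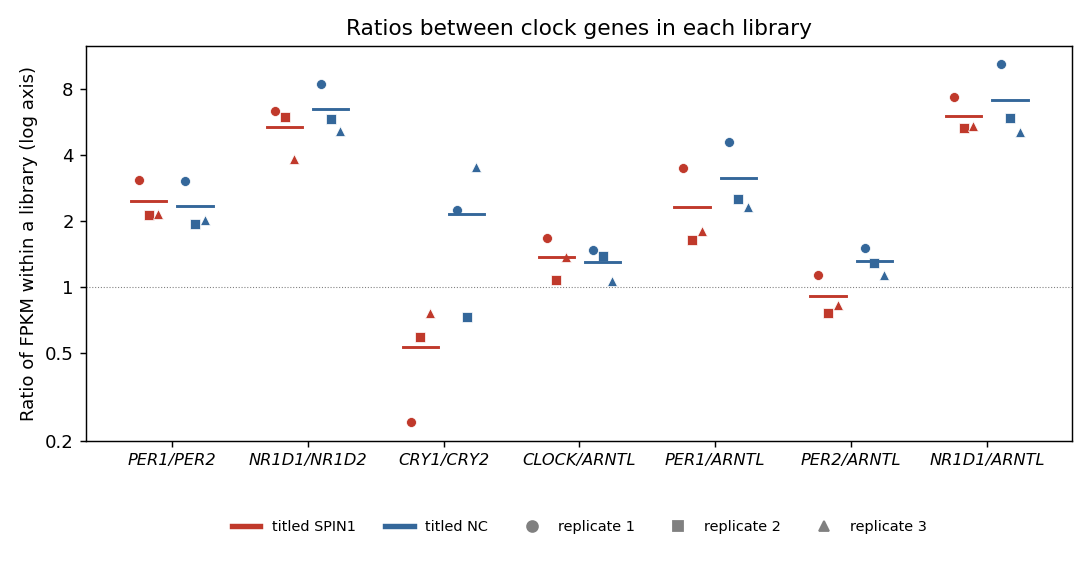
Ratio of the FPKM of a first to a second clock gene within each library (log axis), titled SPIN1 in red to the left of titled NC in blue, with symbols for the replicate and bars for the mean of 3. PER1/PER2 lies between 1.94 and 3.09 in all libraries, and PER2/ARNTL reaches from 0.764 to 1.14 in titled SPIN1 and from 1.14 to 1.51 in titled NC.

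Within the groups, the libraries numbered 1 stood apart. PER2, CRY1, ARNTL, CLOCK and NR1D2 had their lowest value of the group in replicate 1 of both groups, 5 of the 10 clock genes, as did 26.5% of all genes tested. PER1 and DBP had their highest value there in both groups, as did 18.2% of all genes tested. PER3, CRY1 and NR1D2 were highest in replicate 3 of both groups, as were 25.4% of all genes tested.

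A search over 8576 other genes (mean FPKM 2 or more) gave, for each of these 3, the gene nearest in pattern. The one whose log2(FPKM + 1) values over the 6 libraries lay nearest to those of PER1, each centred on its own mean, was CAPS, with a root mean square difference of 0.055. CAPS was at 2.02, 1.69 and 1.35 FPKM in titled SPIN1 and at 4.32, 3.08 and 3.39 FPKM in titled NC. The nearest to PER2 was ZFAND5 (0.029), at 8.24, 8.70 and 8.97 FPKM against 13.3, 15.3 and 15.8 FPKM. SSR4 was nearest to NR1D1 (0.073), at 26.9, 30.6 and 27.7 FPKM against 49.2, 45.9 and 42.1 FPKM.

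Around the core loop, 84 further genes were listed by role, of which 75 were in the table and tested. Of these 13 were higher and 15 lower, while 47 did not pass; the 13 higher are a share like the 17.3% over all genes tested, where 10.3% were lower. They had a median log2(FPKM + 1) difference of -0.03 beside 0.05 over all genes. After quantile normalization 11 were higher and 20 lower. Without titled NC replicate 2 they were 8 and 8, and without titled NC replicate 1 or without titled SPIN1 replicate 3, 8 were higher and 11 or 13 lower. With weights per library 18 were higher and 23 lower.

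The largest decrease among them was that of NFIL3, which encodes E4BP4, a repressor that competes with DBP at D-box elements. NFIL3 was at 10.0, 7.84 and 7.61 FPKM in titled SPIN1 and at 29.0, 32.3 and 33.8 FPKM in titled NC, 3.73-fold lower in the mean (log2 difference -1.79, SE 0.13, limma adjusted p = 0.000601). Of the other E-box repressors and relatives of DBP, BHLHE40 was at 51.4 ± 3.06 FPKM in titled SPIN1 and 51.8 ± 2.54 FPKM in titled NC, and TEF was not past the threshold either. Neither of the 2 paralogs of the activators tested passed: NPAS2, which can stand in for CLOCK in mice, was at 5.89 ± 0.472 FPKM against 6.90 ± 0.0900 FPKM (limma adjusted p = 0.172), and ARNTL2 at 0.407 ± 0.136 FPKM against 0.694 ± 0.424 FPKM (adjusted p = 0.404).

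Of 13 kinases and phosphatases that act on clock proteins 2 were lower and 11 not past the threshold (median log2 difference -0.03), a count near the 10.3% lower over all genes tested. Both encode casein kinases that phosphorylate PER proteins and time their decay. CSNK1E was at 28.3, 26.3 and 21.4 FPKM in titled SPIN1 and at 63.6, 54.7 and 54.7 FPKM in titled NC, 2.28-fold lower (limma adjusted p = 0.00161). CSNK1D was at 15.4, 12.6 and 13.03 FPKM against 19.9, 19.8 and 19.8 FPKM, 1.45-fold lower (limma adjusted p = 0.0118). Its call was lost without titled NC replicate 2 (adjusted p = 0.05005). Among 12 ubiquitin ligases and deubiquitinases 1 was higher, beside 17.3% over all genes tested, and 11 were not past the threshold (median 0.04). The higher one was USP14, at 11.2 ± 2.50 FPKM against 5.04 ± 2.05 FPKM in titled NC (SD, n = 3 each), with a limma adjusted p = 0.0326. USP14 lost its place past the threshold in 4 of 6 fits, those without titled SPIN1 replicate 2, titled SPIN1 replicate 3, titled NC replicate 1 and titled NC replicate 2 (adjusted p up to 0.0958).

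Partners and corepressors of the PER, CRY and REV-ERB complexes were higher in 8 of 17 cases, lower in 2 and not past the threshold in 7, beside 17.3% higher and 10.3% lower over all genes tested (median log2 difference 0.27). TIMELESS, which binds cryptochromes and also travels with the replication fork, was at 5.43 ± 0.814 FPKM in titled SPIN1 against 1.87 ± 0.432 FPKM in titled NC (SD, n = 3 each, with limma's adjusted p = 0.00315). The deacetylase HDAC1 was at 19.2 ± 0.427 FPKM against 12.6 ± 0.690 FPKM (limma adjusted p = 0.00468). CBX3, a heterochromatin protein, was at 17.1 ± 2.32 FPKM against 10.5 ± 0.936 FPKM (adjusted p = 0.0104). The 2 lower genes were CREBBP (log2 difference -0.62, limma adjusted p = 0.0178) and EP300 (-0.53, adjusted p = 0.0295). Several members of this list, TIMELESS and its fork partner TIPIN among them, serve DNA replication or chromatin as well as the clock.

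Of 13 genes linked to signal inputs, 6 were lower and 7 not past the threshold, beside 10.3% lower over all genes tested. Their median log2 difference was -0.32. The list holds inputs that induce PER1 or reset clocks in culture, and also targets and inhibitors of such signals (TSC22D3, DUSP1 and SIK1 among them). NR3C1, the glucocorticoid receptor, was at 11.9, 14.1 and 15.3 FPKM in titled SPIN1 and at 24.7, 27.6 and 27.4 FPKM in titled NC, 1.93-fold lower (limma adjusted p = 0.00263). TSC22D3, a standard target of that receptor, was lower too (log2 difference -0.51, limma adjusted p = 0.0336). FKBP5, another, lay in the other direction, at 6.45 ± 1.73 FPKM in titled SPIN1 against 4.00 ± 0.295 FPKM in titled NC. Its groups did not overlap, but its log2 difference of 0.55 did not pass (limma adjusted p = 0.0613). SGK1, also in the list, differed by -0.05 and did not pass (adjusted p = 0.847). DUSP1, an immediate early gene whose product inactivates MAP kinases, was at 116 ± 12.0 FPKM against 203 ± 14.9 FPKM (SD, n = 3 each; adjusted p = 0.00282). SIK1, a kinase induced by cAMP signalling that curbs the resetting of the clock in mice, was at 66.9 ± 5.80 FPKM against 99.3 ± 2.03 FPKM (adjusted p = 0.00544). SRF, the serum response factor through which serum resets cultured cells, was at 6.18 ± 0.599 FPKM against 9.64 ± 0.737 FPKM (adjusted p = 0.0111).

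Outputs of the clock went in both directions, with 4 of 15 higher, 4 lower and 7 not past the threshold (median log2 difference -0.39), beside 17.3% higher and 10.3% lower over all genes tested. NAMPT, the rate-limiting enzyme of NAD salvage and a target of the activator pair, was at 55.1, 61.5 and 58.5 FPKM in titled SPIN1 and at 122, 137 and 140 FPKM in titled NC, 2.28-fold lower (limma adjusted p = 0.000629). TNFRSF10B, a death receptor, was lower at 17.6 ± 2.43 FPKM against 32.1 ± 0.930 FPKM (SD, n = 3 each; adjusted p = 0.00317). WEE1, a kinase that holds back mitosis and an E-box target in mouse liver, was higher at 1.14 ± 0.277 FPKM against 0.241 ± 0.0731 FPKM (adjusted p = 0.00466), at low levels in both groups.

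**Figure D4:**
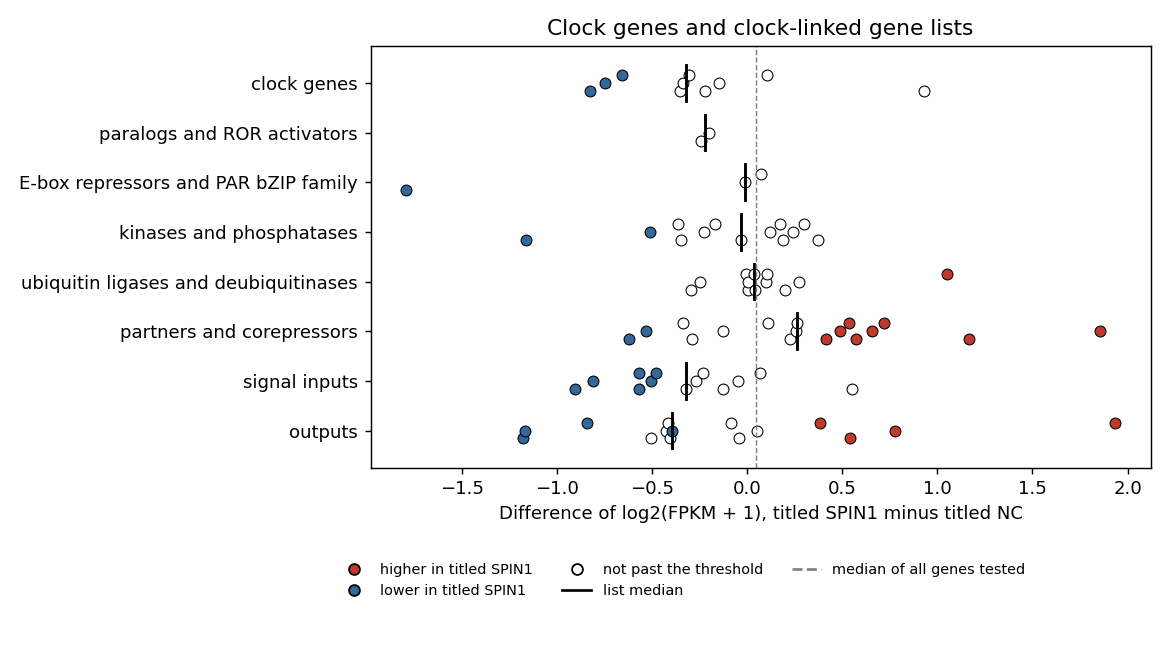
Difference of log2(FPKM + 1), titled SPIN1 minus titled NC, of each tested gene, with a row for the 10 clock genes and for each list of clock-linked genes. Filled points passed limma's test (red higher, blue lower), black ticks are list medians (-0.32 for signal inputs, 0.27 for partners and corepressors) and the dashed line is the median of all genes tested, 0.05.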

How the data were processed

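The authors deposited FPKM values, 1 per gene and library, per the file headers. The submitters' processing notes name FastQC, cutadapt, HISAT2, StringTie and hg19, without settings. Poly(A) RNA was made into strand-specific paired-end libraries, per the labels' protocols. An FPKM is relative to all fragments mapped in its library. When FPKM values were added up within each library, 32.2% to 38.4% came from 13 genes encoded in mitochondria. The share of mapped fragments from those genes is unknown, since no counts are held. The fit by limma 3.58.1 (R 4.3.3; trend, robust moderation with statmod 1.5.0) took log2(FPKM + 1) of the 11061 genes whose mean over the 6 libraries was 0.5 FPKM or more. Benjamini-Hochberg adjustment ran over all of them, with a threshold of 0.05. The code was tested on simulated data. The clock genes and lists were chosen with earlier results of these data known. In each list the up to 4 genes with the smallest adjusted p past the threshold were named, or 2 where none passed. TIPIN, CREBBP, EP300, TEF, BHLHE40, TSC22D3, FKBP5, SGK1 and the overlapping genes were added after their values were seen. A few genes meeting this rule are not reported here. Motifs were searched in RefSeq promoter windows on GRCh38.p14, in which ARNTL is named BMAL1. Alternatives were pseudocounts of 0.1 and 0.01, a filter of 2 FPKM or none, 3 other scalings, plain moderation, weights per library, a block for the replicate number, and leaving out libraries. Figures used matplotlib 3.10.9 in Python 3.11.15.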

Additional observations from a re-analysis of the deposited data

How the results depend on the processing

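Of 168 fits of a single clock gene under an alternative, 162 kept the direction and the side of the threshold. Another 5 passed it where the main fit, that of the results above, did not (CLOCK in 3, CRY2 in 1, NR1D2 in 1). The remaining 1 turned the sign of CRY1 (0.037 without titled SPIN1 replicate 1, range -0.33 to 0.037 with 1 library left out). With weights per library, 5 clock genes were lower, 23 clock-linked genes were lower, and 3106 genes were higher and 2304 lower over the whole table. With a log2 difference of at least 1 required as well, 0 clock genes were lower. With 1 library left out, the counts ran from 1128 to 2045 genes higher, 641 to 1251 lower, 0 to 1 clock genes higher, 3 to 3 lower, and 8 to 13 clock-linked genes higher and 8 to 16 lower. The median difference of all genes was -0.0091 after median scaling and -0.025 after quantile normalization, against 0.05 as deposited. The median of the 10 clock genes was -0.43 and -0.44 with pseudocounts of 0.1 and 0.01, and -0.23 and -0.24 without titled SPIN1 replicate 1 and titled NC replicate 3.

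With the replicate number as a block, 3 clock genes were lower, and 2048 genes were higher and 1251 lower; of the clock-linked genes 14 were higher and 18 lower, and THRA passed (adjusted p = 0.0301). Deviations of same-numbered libraries correlated at 0.216, 0.0551 and 0.148 for numbers 1 to 3. Those of unlike-numbered libraries correlated at -0.211 to 0.0757. Deviations were taken from the mean of each group, so the correlations are not independent, and positive ones force others below 0. Each titled SPIN1 library correlated best with the titled NC library of its own number. From the other side, titled NC replicate 2 correlated best with titled SPIN1 replicate 3 (0.0757). The labels do not state that the numbers pair the libraries, and whether same-numbered libraries were handled together was not tested. The cause of these changes was not tested. The depth is unknown, so the precision at the low level of PER3, CRY1 and CRY2 rests on the spread of 3 libraries.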
